A study of Homo sapiens with 6 samples.

Results

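The HOX cluster genes are the homeobox transcription factor genes of the HOXA, HOXB, HOXC and HOXD clusters, 4 groups of neighbouring genes of the human genome. They were taken as every name in the deposited gene table made of HOX, a cluster letter A to D and a number, each name once. This gave 39 genes of 60835 names, 11 in HOXA, 10 in HOXB, 9 in HOXC and 9 in HOXD. RNA came from the established human ovarian cancer line HEY, in 3 libraries with an siRNA against CCNL2 (siCCNL2) and 3 with a control siRNA (siNC). No other allele, drug or agent was labelled, and both groups share the line and the culture medium. The treatment text gives 48 h with the CCNL2 siRNA for all 6 libraries alike, so the groups follow the genotype label, and the controls are taken to have had the same time. CCNL2 encodes cyclin L2, a partner of CDK11 kinases that takes part in pre-mRNA splicing.

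HOX proteins bind DNA through the homeodomain, a fold of helices, the last of which reads the major groove, and they usually act with PBX and MEIS partner proteins. The number in a HOX name is the position along the cluster, and genes of the same number in different clusters are paralogues. In the embryo low numbers are used towards the head and early, high numbers towards the tail and late. HOXA9, HOXA10, HOXA11 and HOXA13 pattern the oviduct, uterus, cervix and vagina in turn. MLL and menin complexes keep HOX genes active, Polycomb complexes silence them, and retinoic acid induces the low-numbered ones.

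Of the 39 genes, 26 had enough reads to be tested, and 5 of them passed the test, 3 higher and 2 lower in siCCNL2 cells. HOXB2, HOXB7 and HOXD13 were the higher ones, and HOXB5 was among the lower. The coding DNA of the homeoboxes of the higher genes is shown because it encodes the homeodomain, through which HOX proteins bind DNA. It also shows how alike the homeoboxes of paralogues are. How far reads of paralogues can be told apart was not tested. All 3 sequences are read 5′ to 3′ on the strand of the gene from GENCODE 29 transcripts on GRCh38. Each homeobox has 180 bases and lies in exon 2 of 2. Capitals mark bases 142 to 156, which encode tryptophan, phenylalanine, glutamine, asparagine and arginine in that last helix. HOXB2 is at chr17:48543533-48543712 on the minus strand. HOXB7 is at chr17:48607908-48608087 on the minus strand and HOXD13 at chr2:176094524-176094703 on the plus strand.
HOXB2: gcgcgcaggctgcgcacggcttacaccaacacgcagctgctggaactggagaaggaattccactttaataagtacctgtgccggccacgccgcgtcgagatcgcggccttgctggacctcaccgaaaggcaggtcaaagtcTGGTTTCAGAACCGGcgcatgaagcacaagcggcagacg
HOXB7: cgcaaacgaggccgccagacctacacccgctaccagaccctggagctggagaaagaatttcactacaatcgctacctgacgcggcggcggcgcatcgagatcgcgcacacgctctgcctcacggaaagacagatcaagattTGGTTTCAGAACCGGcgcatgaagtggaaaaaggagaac
HOXD13: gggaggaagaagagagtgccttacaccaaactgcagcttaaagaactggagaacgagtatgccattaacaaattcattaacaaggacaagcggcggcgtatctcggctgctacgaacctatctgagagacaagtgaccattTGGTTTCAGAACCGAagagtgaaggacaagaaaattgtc

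Over all 39 homeoboxes, the 42 pairs of paralogues of the same position had a median base identity of 81.7%, with a range of 69.4% to 90.6%. The longest run of bases shared by any of the 741 pairs was 51. HOXB7 was closest to its neighbour HOXB6, with 88.9% of bases and that run of 51 shared, and had 83.9% in common with its paralogue HOXA7. HOXB2 was closest to its paralogue HOXA2, at 76.7%. HOXD13 shared 73.9% with HOXC13, 73.3% with HOXA13 and 70.0% with HOXB13.

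The libraries held 13596286 to 18095529 counts. Whole-transcriptome correlations were 0.991 to 0.992 within a group and 0.983 to 0.986 between groups. CCNL2 itself had 203, 182 and 186 CPM (TMM-scaled counts for a library of fixed size) in siCCNL2 cells, against 261, 267 and 246 CPM in siNC cells. It was lower by 26.3% (log2 fold change -0.44 with an SE of 0.044, and Benjamini-Hochberg adjusted p = 2.15e-08 in the quasi-likelihood test of edgeR), without overlap of the groups. Of the epithelial and ovarian markers, PAX8, KRT7, KRT8 and KRT18 were present. These 4 and WT1 were lower in siCCNL2 cells at an adjusted p under 0.05 by edgeR, with log2 fold changes of -0.17 for PAX8, -0.59 for KRT7, -0.24 for KRT8, -0.22 for KRT18 and -0.46 for WT1. Not all went that way. EPCAM was at 0.58 on the log2 scale (adjusted p = 0.0856), KRT19 at -0.27 (0.378) and MSLN at -0.27 (0.517) by edgeR, and none was called. Of the same markers, MUC16 had 8 counts and ESR1 46 counts over all 6 libraries. The leukocyte gene CD68 and the erythroid gene HBA1 had none. Mesenchymal markers were present too, with VIM at a mean score of 1711 in siCCNL2 cells and 1702 in siNC cells. CDH2 was called higher, at 0.21 on the log2 scale (adjusted p = 3.53e-04 by edgeR). VIM at 0.02, FN1 at 0.05, ZEB1 at 0.02 and SNAI2 at 0.18 were not called. Of the endothelial markers, CDH5 had a length-scaled score of 35.0 in siCCNL2 cells and 85.3 in siNC cells. It was called lower (log2 fold change -1.28, adjusted p = 5.48e-14 by edgeR). PECAM1, VWF and KDR had scores at or below 0.41 in siCCNL2 cells and 1.08 in siNC cells. Of these, PECAM1 was called lower (log2 fold change -1.41, adjusted p = 0.00126 by edgeR), VWF was not called and KDR was not tested. Whether these marker levels take part in the HOX results was not tested. In bulk RNA, fewer cells with a transcript and less of it per cell cannot be told apart. The labels do not say whether replicates were separate cultures, so p-values measure the spread between these libraries.

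HEY cells had a HOXB-dominated pattern. Levels are compared between genes on the authors' score, which is scaled by gene length and library size. The summed score of HOXB was 438 ± 8.78 in siCCNL2 cells and 425 ± 12.9 in siNC cells (SD, n = 3 each). HOXD followed with 79.4 ± 4.94 in siCCNL2 cells and 75.1 ± 4.44 in siNC cells. HOXA had 28.0 ± 2.51 in siCCNL2 cells and 33.5 ± 4.89 in siNC cells, and HOXC 14.9 ± 2.05 in siCCNL2 cells and 11.7 ± 1.33 in siNC cells. HOXB thus gave 78.2% of the summed HOX score in siCCNL2 cells and 77.9% in siNC cells. Positions 1 to 4 gave 63.3% in siCCNL2 cells and 62.6% in siNC cells, positions 5 to 8 gave 25.4% in siCCNL2 cells and 25.6% in siNC cells, and positions 9 to 13 gave 11.3% in siCCNL2 cells and 11.8% in siNC cells. The split over positions was thus close to the same in both groups, and was not tested.

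**Figure D1:**
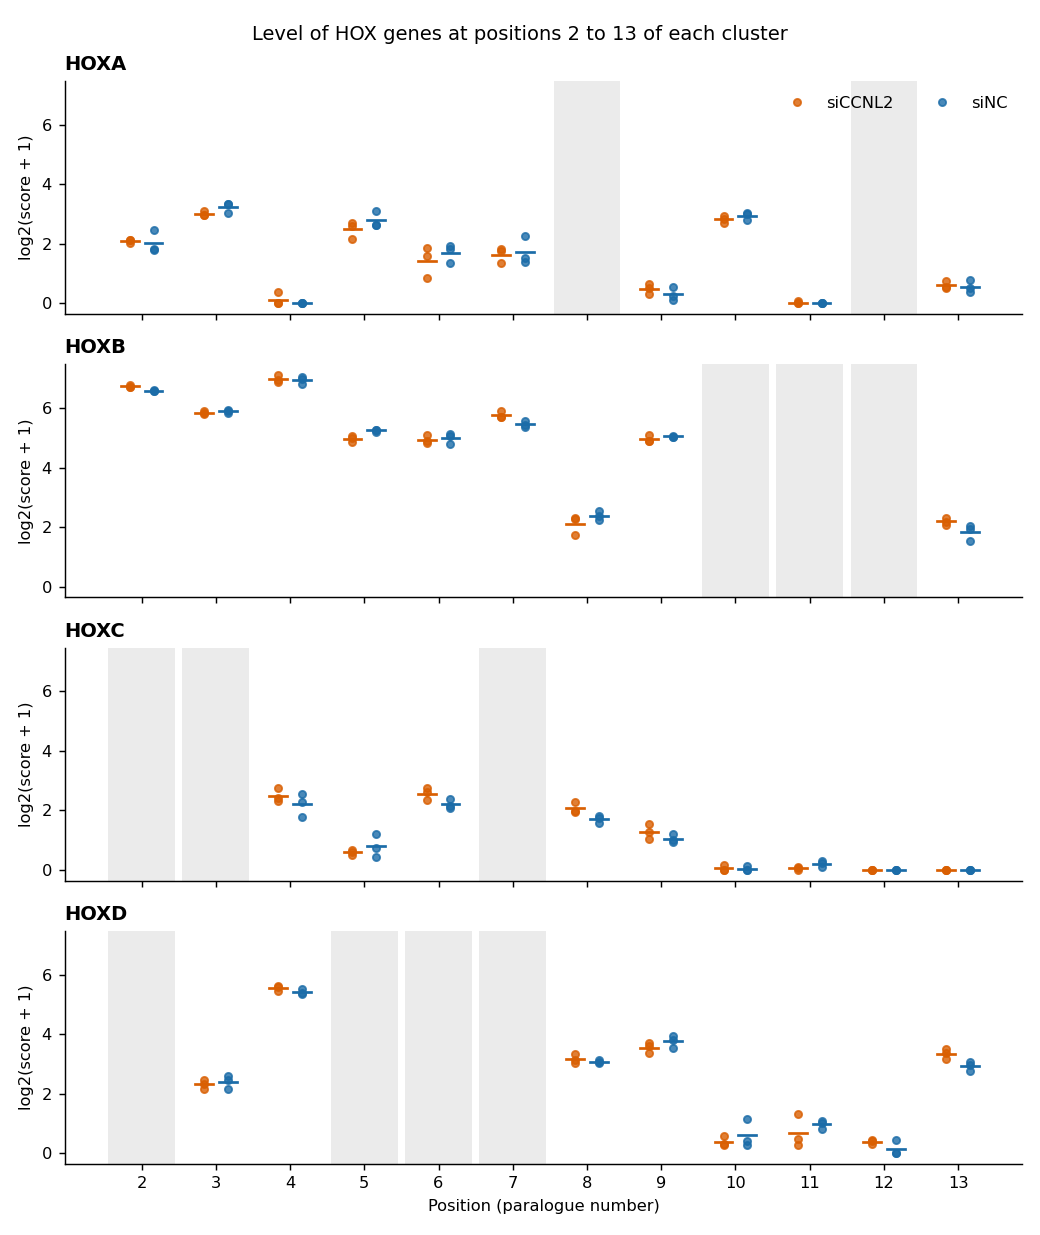
Level of HOX genes at positions 2 to 13 as log2 of the length-scaled score plus 1 (y axis) at its position in the cluster (x axis), 1 panel per cluster, with positions that hold no gene shaded. Points are the 3 libraries of siCCNL2 and siNC; HOXB4 and HOXB2 stand highest, and much of HOXC and the upper end of HOXA lie near 0.

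HOXB4, which in mouse and human promotes the expansion of blood stem cells, was the highest of the 39 genes. Its score was 137, 117 and 123 in siCCNL2 libraries, against 131, 126 and 111 in siNC libraries. The groups overlapped, and HOXB4 was not called (log2 fold change 0.05, 95% interval -0.07 to 0.17, adjusted p = 0.568 by edgeR). HOXB2, a hindbrain patterning gene, came next with 103, 108 and 105 in siCCNL2 libraries, against 96.8, 94.2 and 93.1 in siNC libraries. Every siCCNL2 library was above every siNC library.

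Behind them came HOXB3 at a mean score of 56.5 in siCCNL2 cells and 58.4 in siNC cells, HOXB7 at 53.5 in siCCNL2 cells and 42.9 in siNC cells, and HOXD4 at 46.2 in siCCNL2 cells and 41.7 in siNC cells. HOXB5 had 30.4 in siCCNL2 cells and 37.0 in siNC cells, HOXB9 had 30.1 in siCCNL2 cells and 32.0 in siNC cells, and HOXB6 had 29.6 in siCCNL2 cells and 30.8 in siNC cells. The siNC library ranges of HOXB4, HOXB2, HOXB3 and HOXB7 did not overlap from one neighbour to the next, whereas those of HOXB7 and HOXD4 did, as did those of HOXB9 and HOXB6. A gap without overlap then separated HOXB6 from HOXD9 and HOXD9 from HOXA3. From HOXD3 at 4.34 down to HOXC8 at 2.28, the siNC ranges of all neighbours in the order overlapped. A mean siNC score of at least 1 was reached by 25 of the 39 genes, 9 of them in HOXB.

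The leading genes of the other clusters had far lower scores than HOXB4. HOXD4 gave 55.6% of the HOXD score in siNC cells. Its level is uncertain, since 80.5% of its exonic bases are shared with AC009336.2 on the same strand. HOXB4 shares 17.1% of its exonic bases with other genes on its strand. HOXD4 had scores of 47.1, 42.8 and 48.6 in siCCNL2 libraries, against 40.7, 44.5 and 40.0 in siNC libraries. HOXD9 had 11.9, 9.26 and 11.2 in siCCNL2 libraries, against 12.99, 14.3 and 10.5 in siNC libraries. Both pairs of groups overlapped, and neither gene was called.

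HOXA3, which is needed for the thymus and parathyroid in the mouse, had scores of 7.60, 6.87 and 6.75 in siCCNL2 libraries, against 9.01, 7.18 and 9.08 in siNC libraries. HOXA10, the uterine gene of the cluster, had 6.13, 5.51 and 6.60 in siCCNL2 libraries, against 7.05, 7.14 and 5.94 in siNC libraries. The groups overlapped for both. HOXC4 had 5.71, 4.03 and 4.34 in siCCNL2 libraries, against 2.46, 4.91 and 3.92 in siNC libraries, and HOXC6 had 5.11, 4.07 and 5.70 in siCCNL2 libraries, against 3.48, 3.18 and 4.16 in siNC libraries. On this scale the groups overlapped for both HOXC genes.

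The question of the design is which of these levels differ once CCNL2 is reduced. Among all 15346 tested genes 33.6% were called at an adjusted p under 0.05, 17.2% higher and 16.5% lower. Among the 26 tested HOX genes, 3 were higher, 2 were lower and 21 were not called, which is 19.2%. Their log2 fold changes were positive in 13 and negative in 13, with a median of 0.00 and a median size of 0.23, against 0.00 and 0.19 over all tested genes. Calls were rarer among low genes. Of the 18 tested HOX genes averaging under 10 CPM, 2 were called, against 14.6% of all tested genes at that level. Of the 8 at 10 CPM or more, 3 were called, against 46.1%. The groups did not overlap in CPM for 8 of the 26, or 30.8%, against 43.9% of all tested genes.

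**Figure D2:**
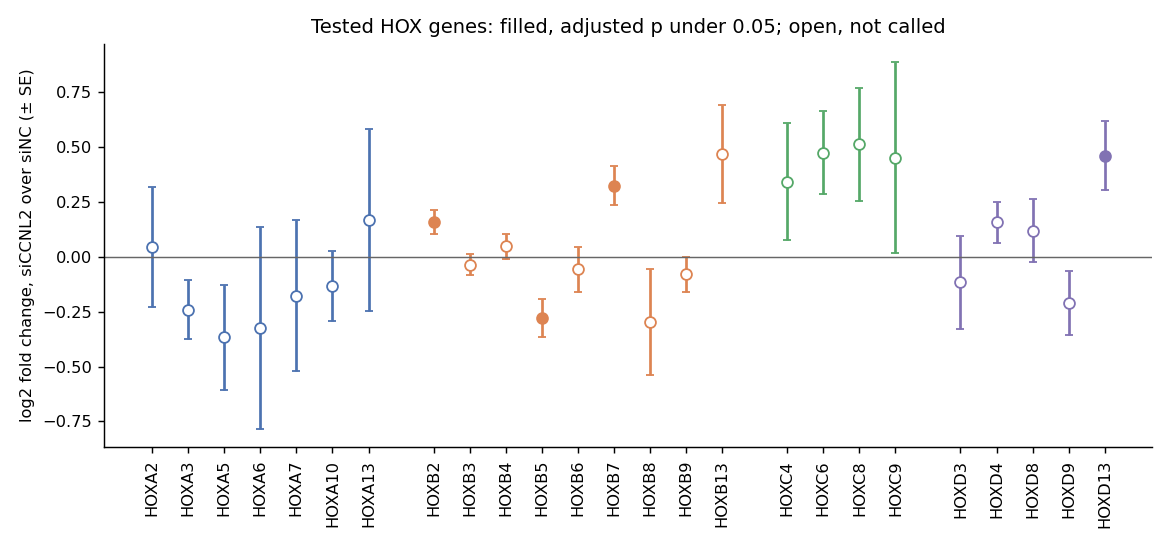
Log2 fold change of siCCNL2 over siNC (y axis) with its SE for the tested HOX genes described here, ordered by cluster and position. Filled points, HOXB2, HOXB5, HOXB7 and HOXD13, passed an adjusted p under 0.05, and all 4 tested HOXC genes lie above 0 without passing.

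HOXB5 (ENSG00000120075), a gene of gut nerve precursors, had 16.8, 20.3 and 18.5 CPM in siCCNL2 libraries, against 22.6, 22.7 and 21.8 CPM in siNC libraries. All siCCNL2 libraries were below all siNC libraries. It was lower by 17.6% as a fitted change of 1.21-fold (log2 fold change -0.28, SE 0.087, adjusted p = 0.0153 by edgeR), and the adjusted p was 0.106 without siCCNL2 replicate 1.

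HOXB7 (ENSG00000260027), reported at raised levels in several carcinomas, had 22.2, 26.7 and 22.8 CPM in siCCNL2 libraries, against 17.8, 18.5 and 20.6 CPM in siNC libraries. The siCCNL2 libraries were all higher than the siNC libraries. It was higher by 25.3% (log2 fold change 0.33, SE 0.091, adjusted p = 0.00691 by edgeR), and the adjusted p was 0.0520 without siCCNL2 replicate 2. In the neighbouring genes of the same cluster, HOXB6 and HOXB8 had log2 fold changes of -0.06 and -0.30 and were not called.

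HOXB2 (ENSG00000173917) had 55.6, 60.9 and 57.4 CPM in siCCNL2 libraries, against 52.6, 51.3 and 51.4 CPM in siNC libraries. The groups did not overlap, and the difference was 11.7% (log2 fold change 0.16, SE 0.056, adjusted p = 0.0291 by edgeR). This call was lost in 7 of 16 alternatives, with adjusted p-values of 0.0515 to 0.119, among them the DESeq2 Wald test at 0.0668 and leaving out siCCNL2 replicate 2 or 3 or siNC replicate 2 or 3.

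HOXD13 (ENSG00000128714), the digit and limb patterning gene at the 5′ end of HOXD, had 6.20, 7.46 and 8.14 CPM in siCCNL2 libraries, against 5.79, 5.37 and 4.58 CPM in siNC libraries. All siCCNL2 libraries were above all siNC libraries. It was higher by 37.7% (log2 fold change 0.46, SE 0.16, adjusted p = 0.0260 by edgeR). The call was lost with the DESeq2 Wald test (adjusted p = 0.0566) and without siCCNL2 replicate 2 (0.0577) or 3 (0.132) or siNC replicate 2 (0.0531) or 3 (0.106).

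An exact permutation test of each of these 4 genes, two-sided, gave a p of 0.1, which is as small as 3 against 3 libraries allow. Little of their exons overlaps other genes in GENCODE 29: 87 bases of HOXB2 lie opposite HOXB-AS1 and 73 of HOXB5 opposite HOXB-AS3, and none of HOXB7 or HOXD13.

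**Figure D3:**
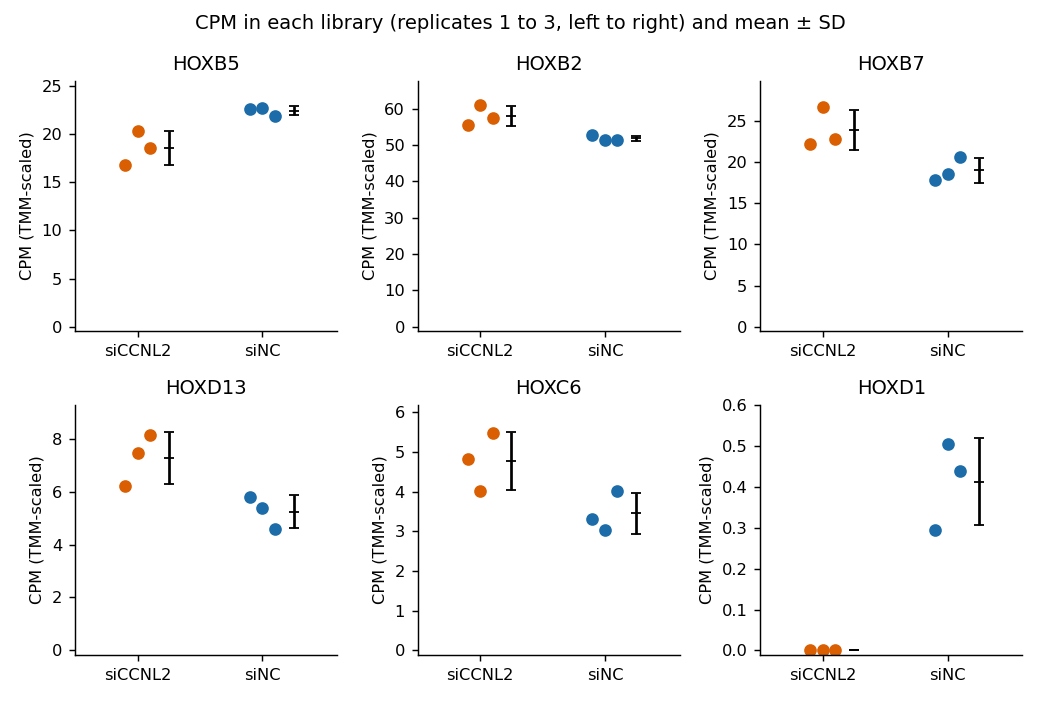
CPM in each library (y axis) of HOXB5, HOXB2, HOXB7 and HOXD13, of HOXC6 and of HOXD1, siCCNL2 at the left and siNC at the right of each panel, with mean and SD. In all 6 panels the groups do not overlap; HOXD1 is at 0 in every siCCNL2 library.

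HOXC genes were low, and the tested ones lay on one side. All 4 tested, HOXC4, HOXC6, HOXC8 and HOXC9, had positive log2 fold changes of 0.34, 0.47, 0.51 and 0.45, and none was called. HOXC6, a gene of the thoracic region and of the mammary gland, came nearest. It had 4.83, 4.03 and 5.47 CPM in siCCNL2 libraries, against 3.31, 3.03 and 4.02 CPM in siNC libraries. The groups did not overlap (adjusted p = 0.0570 by edgeR, 95% interval of the log2 fold change 0.08 to 0.87). HOXC8 likewise had 2.30, 2.31 and 3.05 CPM in siCCNL2 libraries, against 1.54, 1.96 and 1.88 CPM in siNC libraries (adjusted p = 0.132 by edgeR), again without overlap. The tested genes are not fully separate, since HOXC4 and HOXC6 share 484 exonic bases and HOXC6 and HOXC9 share 73. Of those too low to test, HOXC5 had 13 counts in all siCCNL2 libraries against 20 in siNC, HOXC11 2 against 8 and HOXC10 1 against 1.

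Summed over the cluster, HOXC had 11.5, 9.54 and 11.96 CPM in siCCNL2 libraries, against 7.50, 8.53 and 9.35 CPM in siNC libraries, a ratio of 1.30. HOXA had 23.7, 21.3 and 21.4 CPM in siCCNL2 libraries, against 29.5, 24.1 and 24.8 CPM in siNC libraries, a ratio of 0.846. The groups did not overlap for these sums in CPM but did on the length-scaled score, where the ratios were 1.28 for HOXC and 0.837 for HOXA. HOXB had 310, 321 and 303 CPM in siCCNL2 libraries, against 314, 303 and 298 CPM in siNC libraries, and HOXD had 41.9, 40.2 and 43.5 CPM in siCCNL2 libraries, against 40.5, 40.9 and 37.1 CPM in siNC libraries. The sums of HOXB and HOXD overlapped, and no sum was tested.

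**Figure D4:**
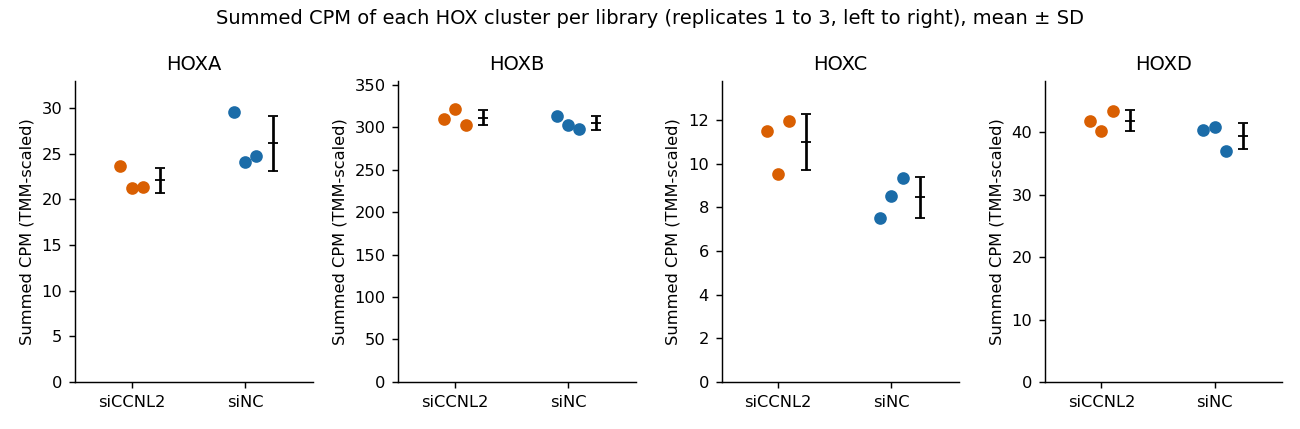
Summed CPM of each HOX cluster per library (y axis), siCCNL2 left and siNC right, with mean and SD. HOXA lies lower and HOXC higher in siCCNL2 libraries, and HOXB and HOXD overlap.

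Within HOXA, negative log2 fold changes that did not pass the test were those of HOXA3 at -0.24 (adjusted p = 0.177), HOXA5, a lung patterning gene, at -0.37 (0.258), HOXA6 at -0.32 (0.634), HOXA7 at -0.18 (0.739) and HOXA10 at -0.13 (0.575), all by edgeR. HOXA2 at 0.04 (0.921) and HOXA13 at 0.17 (0.795) were positive and were not called either. HOXA7 and HOXA6 share 62.5% and 39.3% of their exonic bases with the opposite-strand gene HOXA-AS3. Without a stated strand setting, reads of the 2 strands cannot be told apart there.

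In HOXB, 4 of 9 log2 fold changes were positive and the median was -0.04. HOXB3 was at -0.04 (adjusted p = 0.615) and HOXB9 at -0.08 (0.487) by edgeR, HOXB6 had an adjusted p of 0.715 and HOXB8 of 0.381, and none was called. HOXB13, the prostate and tail-end gene of the cluster, had 3.89, 3.28 and 3.50 CPM in siCCNL2 libraries, against 3.07, 2.78 and 1.88 CPM in siNC libraries. Its groups did not overlap, and it was not called (log2 fold change 0.47, adjusted p = 0.115 by edgeR).

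In HOXD, apart from HOXD13, HOXD4 was at 0.16 (adjusted p = 0.209), HOXD8 at 0.12 (0.565), HOXD3 at -0.12 (0.721) and HOXD9 at -0.21 (0.297) by edgeR, with no call. HOXD4 shares 80.5% and HOXD3 62.2% of their exonic bases with AC009336.2 on the same strand, so their counts are uncertain. In all, 10 of the 26 tested HOX genes share more than 10% of their exonic bases with another gene.

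By position, all 3 tested genes at position 13 (HOXA13, HOXB13 and HOXD13) and all 3 at position 4 had positive log2 fold changes, and all 3 at position 3 had negative ones. The sign held in 12 of 14 alternatives for HOXA13 and in 14 of 16 for HOXB4. The other genes of these positions kept theirs in all. The summed score of position 13 was 13.3 ± 0.91 in siCCNL2 cells and 9.78 ± 1.26 in siNC cells, a ratio of 1.36 (SD, n = 3 each). Position 7 had 55.6 ± 3.71 in siCCNL2 cells and 45.3 ± 2.38 in siNC cells, a ratio of 1.23, almost all of it HOXB7. Position 5 had 35.6 ± 2.46 in siCCNL2 cells and 43.8 ± 1.90 in siNC cells, a ratio of 0.811, mostly HOXB5. These sums were not tested.

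The other 13 HOX genes had too few counts to be tested. HOXC12 and HOXC13 had no count, and over all 6 libraries HOXA11 and HOXB1 had 1 each, HOXC10 2, HOXA4 3, HOXC11 10, HOXD12 17, HOXD1 20, HOXA9 21, HOXD10 26, HOXC5 33 and HOXD11 44. Of the genes that pattern the female tract, HOXA9 and HOXA11 were therefore too low to test, HOXA13 was tested on 80 counts over all 6 libraries, and HOXA10 was the highest on the score.

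HOXD1 was picked from these after its values were seen. It had 0, 0 and 0 counts in siCCNL2 libraries, against 5, 8 and 7 counts in siNC libraries. With a floor of 3 counts over the siCCNL2 group, which allows up to 0.0631 CPM, it was 6.50-fold lower. That fold takes the 20 siNC counts as exact and leaves out their counting error, so it is not a lower limit. Without a filter on counts it passed the test (adjusted p = 9.75e-04 by edgeR over 35107 genes), and its exact permutation p was 0.1. Of its 1975 exonic bases 58.1% lie opposite AC009336.3 and HAGLR. HAGLR itself had a mean of 19.3 CPM in siCCNL2 cells and 17.7 CPM in siNC cells and was not called (log2 fold change 0.13, adjusted p = 0.274 by edgeR).

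Several noncoding genes lie inside the clusters, many antisense to HOX genes. Of 27 listed, 24 were in the table, 9 were tested, 2 were higher, none was lower and 7 were not called. That is 22.2% called, against 33.6% of all tested genes and 14.6% of those under 10 CPM. HOXB-AS3, on the strand opposite HOXB3 to HOXB6, had 3.68, 3.80 and 3.12 CPM in siCCNL2 libraries, against 2.30, 1.64 and 1.82 CPM in siNC libraries. The groups did not overlap, and the log2 fold change of 0.87 (SE 0.23, adjusted p = 0.00481 by edgeR) kept its call in all 16 alternatives. HOXA-AS2, which overlaps HOXA3 and HOXA4, had 3.51, 2.98 and 3.44 CPM in siCCNL2 libraries, against 2.19, 2.21 and 2.26 CPM in siNC libraries. Its groups did not overlap either, but its call (log2 fold change 0.58, adjusted p = 0.0435 by edgeR) was lost in 9 alternatives.

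HOTAIRM1, a noncoding gene of the HOXA cluster, had 0.55, 0.52 and 0.70 CPM in siCCNL2 libraries, against 0.65, 1.14 and 1.13 CPM in siNC libraries, with overlapping groups (log2 fold change -0.70, adjusted p = 0.201 by edgeR). The other tested noncoding genes were HOXB-AS4 at a log2 fold change of 0.48 (adjusted p = 0.110), HOXB-AS2 at -0.45 (0.0942), MIR196A1 at 0.16 (0.815), HAGLROS at 0.06 (0.857) and HOXB-AS1 at -0.00 (0.991) by edgeR. None of these was called.

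Of 9 HOX cofactor genes 6 were tested, and 2 were higher, none lower and 4 not called, with a median log2 fold change of 0.19. The 33.3% called was near the 33.6% of all tested genes. PBX3, which pairs with HOX proteins on DNA, had 73.2, 76.7 and 72.3 CPM in siCCNL2 libraries, against 48.8, 48.1 and 52.1 CPM in siNC libraries. All siCCNL2 libraries were above all siNC libraries (log2 fold change 0.58, SE 0.054, adjusted p = 8.96e-09 by edgeR). MEIS2 was at 0.24 (adjusted p = 0.0269 by edgeR), a call lost in 8 alternatives, and PBX2, MEIS1 and PKNOX1 were not called.

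The known regulators of HOX genes held calls in both directions, and the lists as a whole were not tested. The list of 16 genes named after the MLL and menin complexes also holds genes outside those complexes, such as DOT1L and KAT6A. Of the 16, 9 were higher, 1 was lower and 6 were not called. That is 62.5% called, against 33.6% of all tested genes and 46.1% of those at 10 CPM or more. Among the called genes were the methyltransferase KMT2C at 0.38 and the acetyltransferase KAT6A at 0.34 on the log2 scale. The H3K79 methyltransferase DOT1L was at 0.31 and ASH2L at -0.20. Of 32 tested Polycomb genes, 12 were higher, 6 lower and 14 not called, or 56.2% called, beside the same 33.6% and 46.1%. Those with the largest changes were YAF2 at 0.43, PCGF6 at 0.43 and KDM2B at 0.42, and RING1 at -0.43, PHC1 at -0.37 and MTF2 at -0.27. The median log2 fold changes were 0.18 for the MLL and menin list and 0.12 for Polycomb.

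In the retinoic acid pathway 9 of 17 genes were tested, of which 3 were higher, 4 lower and 2 not called, or 77.8% called against 33.6% of all tested genes. ALDH1A3, which makes retinoic acid, was at 0.72 and the receptors RXRB and RXRA at 0.40 and 0.29. CRABP2, which carries retinoic acid to its receptors, was at -0.999, the receptor RARA at -0.46 and CYP26B1, which degrades it, at -0.34. The call of CYP26B1 was lost in 5 alternatives, both limma-trend fits and those without siCCNL2 replicate 2 or 3 or siNC replicate 1, with adjusted p-values up to 0.0768. The called genes of the pathway went both ways, and the median was -0.10.

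Protein-coding genes flanking the clusters gave 7 higher, 3 lower and 5 not called of 15 tested. That is 66.7% called, against 33.6% of all tested genes and 46.1% of those at 10 CPM or more. Of the higher genes 5 were at 0.33 on the log2 scale. They were HIBADH, SKAP2 and TAX1BP1 near HOXA, CBX1 near HOXB and LNPK near HOXD. The lower ones were CALCOCO1 near HOXC at -0.57, SNX11 near HOXB at -0.43 and SMUG1 near HOXC at -0.23. Other listed genes lie between some of these and their cluster, as for TAX1BP1 and CBX1. The call of SMUG1 was lost in 8 alternatives, among them every one that left out a library, and that of HIBADH in 2, without siCCNL2 replicate 2 and without siNC replicate 2. The genes near HOXC went both ways, since HNRNPA1 was higher at 0.29, and CBX5 at 0.00 and ATP5MC2 at -0.03 were not called.

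**Figure D5:**
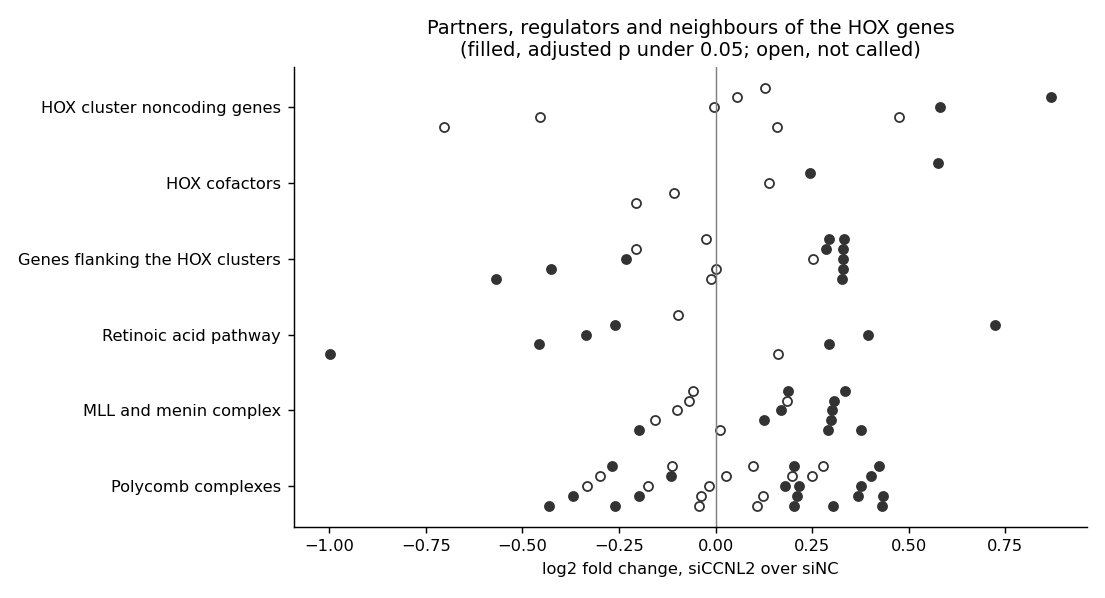
Log2 fold change of siCCNL2 over siNC (x axis) for tested genes of each list (rows). Filled points passed an adjusted p under 0.05; PBX3 at 0.58, HOXB-AS3 at 0.87, ALDH1A3 at 0.72 and CRABP2 at -0.999 are the ends of their lists.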

How the data were processed

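RNA was sequenced from 3 siCCNL2 and 3 siNC libraries of HEY cells, grouped by the genotype label. The authors deposited a table of raw counts per gene, and a second table with a score made from gene length and library size, per the file headers and values. Over distinct names it sums to an equal total in every library, and over all rows to more, so it is treated as a score. Counts and scores gave 1 factor per gene and library within 4.48e-08 over 15332 genes. Named in the submitters' processing notes, with no role or order, are HTSeq 2.0.1, HISAT2, fastp 0.23.0 and the build GRCh38. Strand setting, library kit and annotation release are not given in the sources used here. There were 62710 rows for 60835 names, and each name was used once.

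Counts were tested with edgeR 4.0.16 in R 4.3.3 (TMM factors, filterByExpr, quasi-likelihood test without covariates), with Benjamini-Hochberg adjustment over 15346 genes and calls made where that p was under 0.05. Fold changes divide siCCNL2 by siNC. CPM values are TMM-scaled, SDs are over 3 libraries, and intervals and floors cover counting error and these libraries only. The floor covers the counting error of the siCCNL2 group alone. Alternatives were other scalings, filters, DESeq2 1.42.0, limma 3.58.1 (voom, or trend on the log2 score with pseudocount 1 or 0.1), an adjusted p under 0.01, a replicate block and leaving out each library. Scripts were tested on simulated data with 50 changed genes at each size. Calls in the right direction were made for 40% of 1.25-fold, 74% of 1.5-fold, 76% of 2-fold and 88% of 3-fold changes. There were 8 false calls among 14986 tested genes. A far smaller share of genes was changed there than the 33.6% called in the data, so these rates need not hold for the data. The split at 10 CPM was chosen after seeing the data.

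The members, the lists of partners, regulators and neighbours, and the tests were chosen with earlier results of these data known. Named were CCNL2, every tested HOX gene, the tested noncoding genes and, in each other list, up to 3 called genes per direction. Some genes that this rule names, and some homeobox sequences, are not reported here. Library values were given for called HOX genes and for the 2 highest of each cluster. Homeobox DNA was read from GENCODE 29 transcripts on GRCh38, in which all 39 members were found on the same chromosome, 37 with both ends within 1000 bases.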

Additional observations from a re-analysis of the deposited data

How the results depend on the processing

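The count called among all tested genes stayed within 1.5 times its main value in every alternative, and the ratio of each cluster sum kept its direction, though the HOXA and HOXC groups were apart in CPM and overlapped on the score. The 5 called HOX genes (3 higher, 2 lower) became 3 with the DESeq2 Wald test (1 higher) and 2 at an adjusted p under 0.01 (1 higher, 1 lower). Leaving out 1 library gave 2 to 5 calls, 1 to 3 higher and 1 to 2 lower, with 2 without siCCNL2 replicate 2. Whether the replicate numbers pair the libraries is not settled. Same-numbered deviations correlated weakly, at 0.043, 0.023 and 0.026, though each library correlated best with its own number, a hint from the data. With the replicate number as a block, 6 HOX genes were called, HOXC6 added at an adjusted p of 0.0478, and HOXA-AS2 was lost at 0.0510. HOXC6 was also called without siCCNL2 replicate 2 (0.0320) and without siNC replicate 3 (0.0368). Of 49 called list genes, 36 kept the call in every alternative. Calls among the cofactors were 2 in the report and 1 in 9 alternatives, and among the noncoding genes 2 in the report, 1 in 9 alternatives and 4 with limma-trend. The causes were not tested.

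Signs turned for 6 of 26 HOX genes, none of them called, when 1 library was left out. Over all alternatives, the log2 fold changes ran from -0.095 to 0.38 for HOXA2 and from -0.70 to 0.032 for HOXA6. For HOXA7 they ran from -0.39 to 0.29 and for HOXA13 from -0.10 to 0.59. For HOXB4 they ran from -0.0090 to 0.10 and for HOXB6 from -0.15 to 0.022. Among uncalled noncoding genes they ran from -0.035 to 0.13 for HAGLROS, from -0.18 to 0.21 for HOXB-AS1 and from -0.12 to 0.43 for MIR196A1. HOXB-AS1, at -0.00 in the report, was also at 0.021 with limma-voom, at 0.024 and 0.027 with limma-trend and pseudocounts of 1 and 0.1, and at 0.0085 with the replicate block. Of these alternatives, limma-trend was the one that called HOXB-AS2 and HOXB-AS4.

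Low counts limit most HOX genes: 18 of 26 averaged under 10 CPM, with a median SE of 0.24 against 0.083 at 10 CPM or more.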
